A study of Oryza sativa Japonica Group with 8 samples.

Results

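Genes counted mainly in control leaves were chosen by their CPM (the count of a gene over the total of its library, scaled to 1000000) in the 4 RNA-seq libraries of this study: the lower of both control libraries had to reach 0.5 CPM and to be at least 4 times the higher of both carbon dot libraries. Of the 55801 genes in the count table, 6 met the rule. The 6 were PLA1 (LOC_Os10g26340), OSH1 (LOC_Os03g51690), LOC_Os08g28400, LOC_Os04g43580, LOC_Os05g42130 and LOC_Os02g34380, the last 4 without a name in the sources used here. The levels that chose them are given below as a description, without a test. The rule itself requires reads in both control libraries, and 5 of the 6 also had reads in at least 1 carbon dot library.

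The leaves came from rice seedlings of the cultivar Nipponbare (Oryza sativa, Japonica Group). In the carbon dot group (CD, 2 libraries), seeds had been sown in 1/2 MS, a mineral salt medium, that held carbon dots at 0.56 mg/ml, and in the control group (CK, 2 libraries) in 1/2 MS alone. Carbon dots are carbon nanoparticles. Seedling age is stated as 2 weeks in the characteristics, whereas the treatment protocol has 3 weeks of growth. The tissue is given as leaves, without saying whether leaf bases were included. Whether the replicates were separate plants or cultures is not stated either, and the p-values below reflect library-to-library spread that may be technical. The series title names an epigenetic study of carbon dots in rice, and its 4 bisulfite samples were not analysed here.

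In grasses, leaves arise at the flank of the shoot apical meristem, a dome of dividing cells enclosed in the bases of older leaves. Class I KNOX homeobox genes such as OSH1 are transcribed in the meristem and are switched off where a leaf is about to form, so a mature leaf blade holds little of their RNA. PLASTOCHRON1 (PLA1) encodes a cytochrome P450 that is transcribed in young leaves near the apex, and loss of its function makes rice form leaves at shorter intervals.

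Total counts ran from 49281927 (CD replicate 2) to 80317398 (CK replicate 1), so 1 count was worth most CPM in CD replicate 2, where 3 counts are 0.0609 CPM. Along principal component 1, which held 46.6% of the variance, CD replicate 1 stood apart at -76.4, against 2.29 to 51.3 in the other 3 libraries, and along component 2 (32.1%) CD replicate 2 stood apart at -67.8, against 18.5 and more in the other 3. The leaf markers CAB1R and CAB2R, antenna proteins of photosynthesis, were present in every library but varied widely (2 of 7 listed entries matched by name). They summed to 315 and 1200 CPM in CD replicates 1 and 2 against 2484 and 848 CPM in CK replicates 1 and 2.

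PLA1 lies on chromosome 10 from 13658790 to 13660543 on the minus strand. The carbon dot libraries held 1 and 0 PLA1 counts (replicates 1 and 2) and the control libraries 208 and 64. In CPM these are 0.0134, 0, 2.59 and 1.05, so the carbon dot mean was 0.00668 ± 0.00945 CPM and the control mean 1.82 ± 1.09 CPM (SD, n = 2). Nearly all PLA1 reads were in the control libraries, and CK replicate 1 held 2.46 times the level of CK replicate 2. With the counts of each group pooled, the control level was 239 times the carbon dot level, with an exact 95% interval of 42.6 to 9487 that covers counting error only and is wide because it rests on 1 count. In bulk leaf RNA, fewer cells of a type and less RNA per cell cannot be told apart.

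OSH1 lies on chromosome 3 from 29596277 to 29606861 on the minus strand. It had no count with carbon dots, 117 counts (1.46 CPM) in CK replicate 1 and 42 counts (0.691 CPM) in CK replicate 2. The control mean was 1.07 ± 0.541 CPM (SD, n = 2). At these depths a count of 0 allows up to 0.0401 and 0.0609 CPM in the carbon dot replicates 1 and 2. With the counts of each group pooled and a floor of 3 counts over the carbon dot group, OSH1 was at least 46.6-fold lower with carbon dots. That bound leaves out the spread between replicates. The CK libraries differed from each other by a ratio of 2.11, close to the ratio for PLA1.

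**Figure D1:**
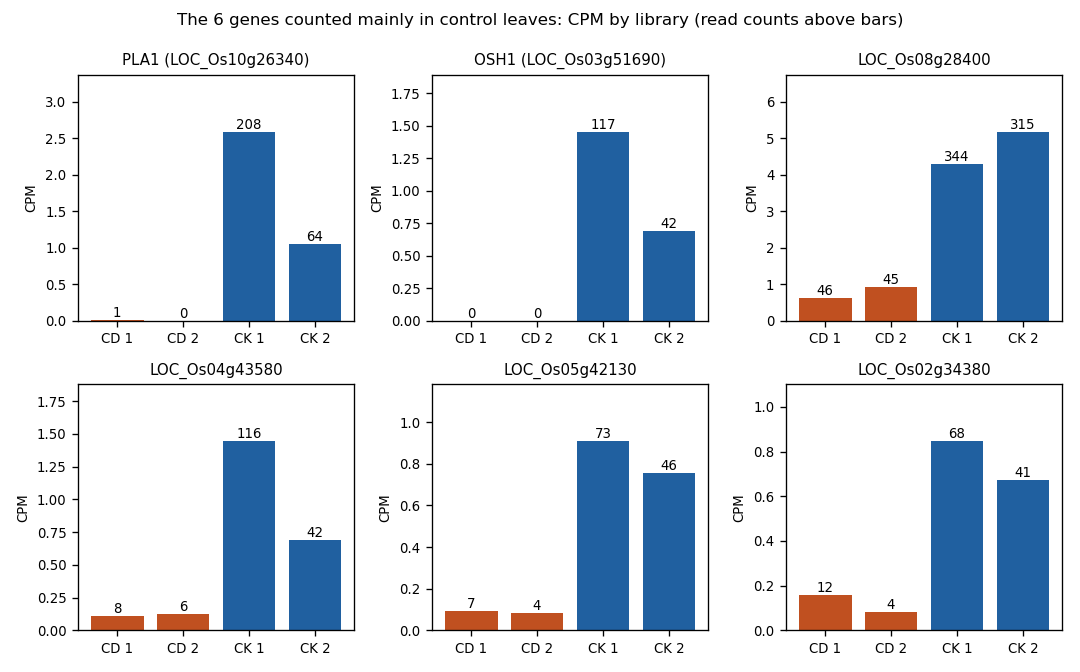
Each panel shows 1 of the 6 genes. Bars give CPM from the column totals in each library (CD, carbon dots, orange; CK, control, blue; 1 and 2 are replicates; each panel has its own scale from 0), with the read count above each bar. PLA1 and OSH1 had 0 or 1 count in the carbon dot libraries, and the other 4 genes had 4 to 46 counts there.

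LOC_Os08g28400, on chromosome 8 from 17320537 to 17323238 on the minus strand, had the highest counts of the 6. It had 46 and 45 counts in CD replicates 1 and 2 and 344 and 315 counts in CK replicates 1 and 2, or 0.615, 0.913, 4.28 and 5.18 CPM. It was also the gene among the 6 that was higher in CK replicate 2 than in CK replicate 1. Group means were 0.764 ± 0.211 CPM (carbon dots) and 4.73 ± 0.637 CPM (control; SD, n = 2), and the log2 fold change (carbon dots minus control) was -2.74 ± 0.35 (SE, edgeR). Pooled counts gave a control level 6.37 times the carbon dot level (exact 95% interval 5.11 to 8.02, counting error only), so unlike OSH1 this gene kept reads in every library.

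LOC_Os04g43580, on chromosome 4 from 25790014 to 25791567 on the minus strand, had 8 and 6 counts in the CD libraries against 116 and 42 in the CK libraries, or 0.107, 0.122, 1.44 and 0.691 CPM. Its control counts were within 1 count of those of OSH1 in both libraries, with the same tilt to CK replicate 1 (2.09 times CK replicate 2). Its log2 fold change was -3.32 ± 0.60 (SE).

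LOC_Os05g42130, on chromosome 5 from 24631172 to 24632715 on the plus strand, had 7 and 4 counts in the CD libraries against 73 and 46 in the CK libraries, or 0.0935, 0.0812, 0.909 and 0.757 CPM. LOC_Os02g34380, on chromosome 2 from 20572270 to 20575033 on the plus strand, had 12, 4, 68 and 41 counts in the same order, or 0.160, 0.0812, 0.847 and 0.675 CPM. In these genes the control libraries lay closer together, at ratios of 1.20 and 1.25 between CK replicates 1 and 2. Their log2 fold changes were -3.32 ± 0.51 and -2.71 ± 0.56 (SE).

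Per length, LOC_Os08g28400 was well above the others in the control. In the deposited TPM (counts per gene length, scaled to the same total of 1000000 in each library), it averaged 10.3 ± 1.44 in the control. PLA1 followed at 1.97 ± 1.17 TPM and LOC_Os04g43580 at 1.79 ± 0.887 TPM, which overlap each other. LOC_Os05g42130 had 0.976 ± 0.121 TPM, LOC_Os02g34380 0.925 ± 0.144 TPM and OSH1, the longest of the 6, 0.715 ± 0.358 TPM (SD, n = 2), and the values of these 3 also overlap. All 6 were low among the 22493 genes with at least 0.5 CPM in both control libraries: the mean control CPM of LOC_Os08g28400 was above that of 26.8% of these genes, that of PLA1 above 12.6% and that of LOC_Os02g34380 above 2.31%.

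The rule admitted 0.0267% of those 22493 genes, while both control libraries lay above both carbon dot libraries for 14.6% of them. The mirror of the rule (at least 0.5 CPM in both carbon dot libraries and at least 4 times the higher control library) admitted 23 genes, or 0.102% of the 22601 that reached that level. LOC_Os02g34380 (4.21 times), LOC_Os08g28400 (4.69 times) and LOC_Os04g43580 (5.68 times) were closest inside the fold threshold. LOC_Os02g17780 (3.97 times), LOC_Os07g08160 (3.85 times) and LOC_Os01g40120 (3.60 times) were closest outside it. At the level threshold, LOC_Os02g34380 (0.675 CPM), OSH1 and LOC_Os04g43580 (each 0.691 CPM in CK replicate 2) were closest inside. LOC_Os07g02150 (0.461 CPM in its lower control library), LOC_Os07g02120 and OSH6 (each 0.411 CPM) were closest outside. Between 3 and 4 times lay 11 genes, and a further 8 met the fold at 0.25 to under 0.5 CPM.

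**Figure D2:**
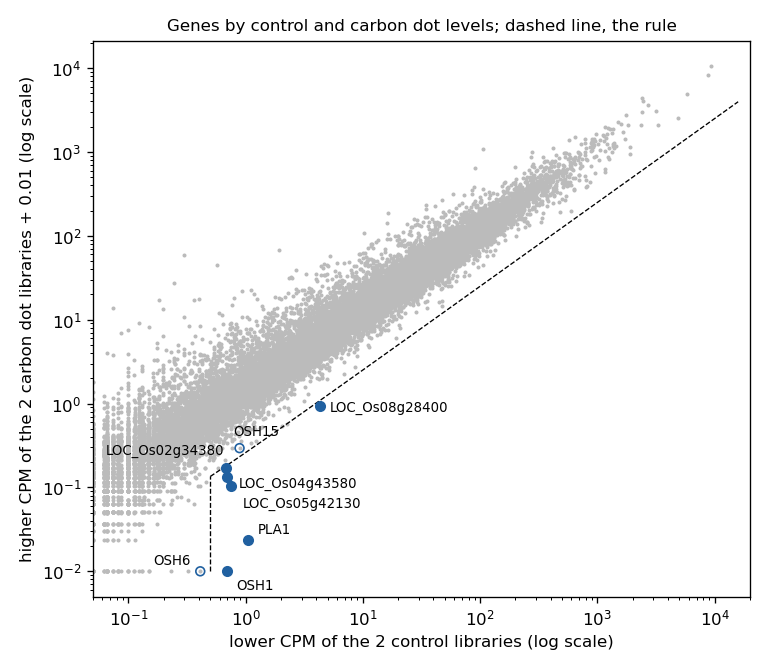
Each point is a gene with reads in both control libraries and at least 0.05 CPM in the lower one, by the lower control CPM (x, log scale) and the higher carbon dot CPM plus 0.01 (y, log scale). The dashed line is the rule. The 6 members (filled blue) lie at control levels of 0.675 to 4.28 CPM, and OSH6 and OSH15 (open circles) lie outside the rule.

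edgeR's quasi-likelihood test with Benjamini-Hochberg adjustment over 26271 genes called 0 of the 6 members at an adjusted p of 0.05, and 0.0% of all genes tested were called lower. At an unadjusted p under 0.05 all 6 were lower, as were 5.37% of all genes tested. Without the filter on low counts edgeR called 3 of the 6 (PLA1, OSH1 and LOC_Os08g28400), beside 0.0432% of all genes called lower, and DESeq2 called all 6, beside 1.18%. The rule used the same contrast and all 6 passed the filter through the control libraries, so these counts describe the choice and support nothing. Leaving out a library can only loosen the rule: 67 and 40 genes met it when CD replicate 1 or 2 was dropped, and 51 and 33 when CK replicate 1 or 2 was, each time including the 6.

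Of the KNOX genes, a list of 9 entries of which 7 could be matched by name, OSH1 was the only member. OSH6 missed the rule by its level and OSH15 by its fold. OSH6, another class I gene, had no count in either carbon dot library but 33 and 38 in the controls (0.411 and 0.625 CPM). With counts pooled, its level was at least 20.8-fold higher in the control against the same floor, leaving out the spread between replicates. OSH15, whose loss shortens the internodes of rice, had 10 and 14 counts in the CD libraries (0.134 and 0.284 CPM) against 89 and 54 in the CK libraries (1.11 and 0.889 CPM), a ratio of 3.13 between the lower control and the higher carbon dot library. Both control libraries lay above both carbon dot libraries in 3 of the 7 matched KNOX genes (OSH1, which was chosen for it, OSH6 and OSH15), as they did for 13.1% of all genes with a read. The list was drawn up with earlier results of these data known, so its counts are a description only. edgeR called 0 of the 6 KNOX genes tested, with an adjusted p of 0.46 for OSH6 and OSH15. DESeq2 called OSH1, which was chosen on this contrast, and OSH6 (adjusted p = 0.00346), beside 1.18% of all genes called lower. It did not call OSH15 (adjusted p = 0.0524). The median log2 fold change of the 6 tested was -1.36, beside 0.007 for all genes tested, but it includes the chosen OSH1 and falls in a gap between OSH15 at -2.38 and OSH71 at -0.34, so it is the level of no KNOX gene.

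In the other 4 matched KNOX genes the groups overlapped. OSH71, a class I gene, had 2.50 and 1.52 CPM with carbon dots against 2.05 and 2.68 CPM in controls. The class II genes HOS59 and HOS58, which are transcribed in differentiated leaves, were far higher: HOS59 stood at 200 and 204 CPM with carbon dots against 223 and 203 CPM in controls, and HOS58 at 127 and 142 against 142 and 142 CPM. OSH3, which lies 2 places from OSH1 on chromosome 3, had at most 4 counts in any library and was not tested. The other 2 entries of the list could not be matched by name and went opposite ways. LOC_Os03g56110, entered as OSH43, had 123 and 68 counts in the CD libraries against 17 and 43 in the CK libraries. In CPM these are 1.64 and 1.38 against 0.212 and 0.708, so here both carbon dot libraries were higher. Its log2 fold change was 1.63 ± 0.64 (SE), with an adjusted p of 0.58 by edgeR. LOC_Os08g19650 had 118 and 106 CPM with carbon dots against 130 and 142 CPM in controls, so here both controls were higher.

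The leaf initiation list, in which 4 of 6 entries could be matched, held PLA1 as its only member. PLA3, a carboxypeptidase whose loss also shortens the interval between leaves, had 19.1 and 17.8 CPM with carbon dots against 18.5 and 16.8 CPM in controls. LG1, needed for the ligule at the base of the blade, had 9.55 and 9.68 against 8.35 and 10.6 CPM, and DL, a YABBY gene of the midrib, 2.75 and 3.67 against 3.11 and 3.19 CPM. The groups overlapped for all 3. edgeR called 0 of the 4. DESeq2 called PLA1 alone, which was chosen on this contrast, beside 1.18% of all genes called lower.

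**Figure D3:**
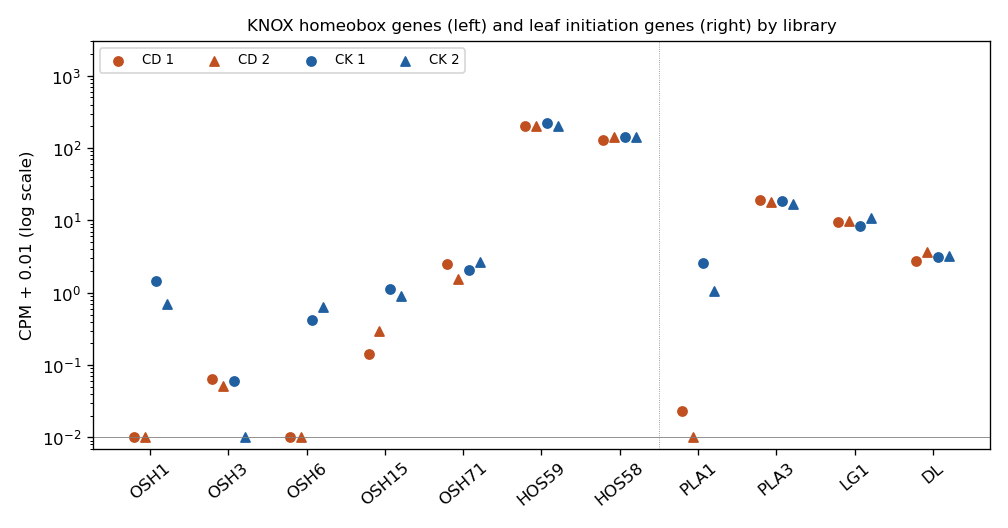
Points give CPM + 0.01 (log scale) of each matched KNOX gene (left of the dotted line) and leaf initiation gene (right) in each library; orange, carbon dots; blue, control; circles, replicate 1; triangles, replicate 2; the grey line at 0.01 is 0 counts. OSH1, OSH6, OSH15 and PLA1 had both control libraries above both carbon dot libraries (OSH1 and PLA1 were chosen for this; 13.1% of all genes with a read had it), and the other 7 genes overlapped.

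Marker genes of other cell types were read in the same libraries. The meristem markers outside the KNOX family, FON1 (a receptor kinase), FON2 (its peptide partner) and LOG (a cytokinin-activating enzyme), 3 of 6 entries matched, summed to 137 to 228 CPM with carbon dots against 216 to 240 CPM in controls, most of it from LOG, and edgeR and DESeq2 each called 0 of the 3. FON2 had 1 to 14 counts in a library. In the sums that follow, replicate 1 comes before replicate 2 in each group. The 3 genes of dividing cells (PCNA, CYCB1;1 and CYCB2;2) summed to 48.2 and 47.1 CPM with carbon dots against 45.3 and 46.2 CPM in controls. Both carbon dot libraries were higher for PCNA and CYCB1;1, and both control libraries for CYCB2;2. The root genes LSI1 and NRAMP5 summed to 31.5 and 38.4 against 39.6 and 50.7 CPM, with LSI2 at 0 in every library. LSI1 had both control libraries above both carbon dot libraries, and for NRAMP5 the groups overlapped. The endosperm genes GLUA1 and GLUA2 summed to 9.04 and 7.79 against 7.88 and 7.54 CPM. The secondary wall genes CESA4, CESA7 and CESA9 summed to 674 and 1347 against 1088 and 710 CPM. The YABBY genes, transcription factors of lateral organs (6 of 6 matched), summed to 103 and 133 against 102 and 114 CPM. The MADS box genes (8 of 9 matched) summed to 141 and 171 against 155 and 153 CPM. Of the 2 BELL homeobox entries, 0 could be matched. Outside the KNOX and leaf initiation lists, edgeR and DESeq2 each called 0 matched genes of the lists. The part of tissue makeup in the levels of the 6 members was not tested.

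With at least 20 counts in each control library, 3 genes of the table had no count in either carbon dot library: OSH1, OSH6 and LOC_Os01g46984, which has no name here and had 26 and 51 counts in the CK libraries. That minimum was chosen after the values were seen. In the other direction 2 genes had 0 counts in both CK libraries and at least 20 in each CD library. With a minimum of 10 counts there were 7 genes at 0 in the carbon dot libraries and 3 at 0 in the controls, and with 30 there were 2 and 2.

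Gene structure was not used by the rule. The 6 members had a median exonic length of 1516 bases, in a range from 830 (LOC_Os08g28400) to 2714 (OSH1), against a median of 1798 for the 22493 genes at 0.5 CPM or more in both controls, 1527 for the 23 genes of the mirror set and 1383 for all genes. PLA1 had 1668 bases in 2 exon entries, LOC_Os02g34380 1488 bases in 5, LOC_Os04g43580 1077 bases in 6 and LOC_Os08g28400 in 4. LOC_Os05g42130 was a single block of 1544 bases, so 1 of 6 members had 1 exon entry (16.7%, exact 95% binomial interval 0.421% to 64.1%), against 15.2% of the 22493 genes, 17.4% of the mirror set and 21.8% of all genes. OSH1 had most entries, 15, but the table lists the exons of each transcript, and after overlaps were merged it had 5 blocks and LOC_Os04g43580 had 3. The merged median was 3.5 blocks, against 4 for the 22493 genes, 5 for the mirror set and 3 for all genes. Among the 5953 of those genes at control levels like the members' (0.5 to 5.18 CPM), the median length was 1456 bases, the median was 3 blocks and 27.6% had 1 exon entry. The medians of the 6 members thus lay below those of all 22493 genes and above those of the genes at like levels. Single members lay on either side of both. No test of length or exon number was run.

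**Figure D4:**
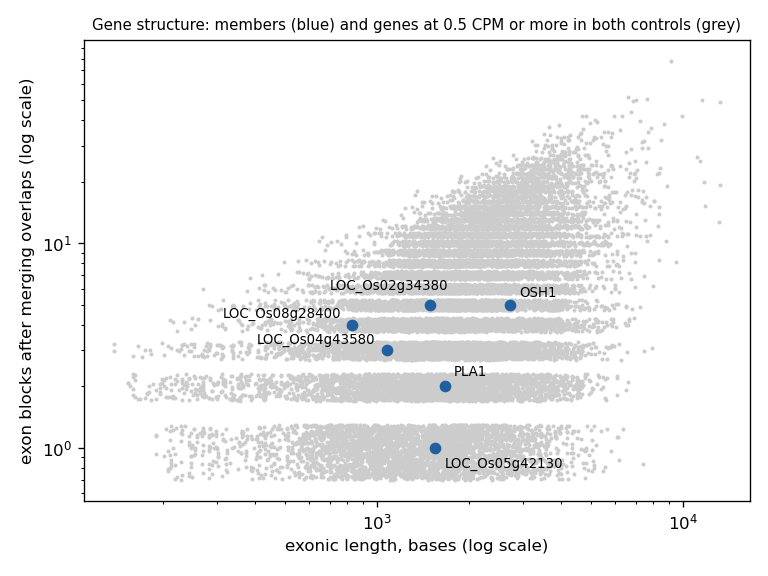
Exonic length in bases (x, log scale) against exon blocks after merging overlaps (y, log scale; grey points are spread vertically by up to 0.3 for visibility) for the 6 members (blue) and the genes at 0.5 CPM or more in both control libraries (grey). The members lie within the grey cloud, from 830 to 2714 bases and from 1 to 5 blocks.

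The members did not lie near each other, though 6 members among 55801 genes are too few for this to say much about clustering. They lay on 6 different chromosomes (2, 3, 4, 5, 8 and 10), so 0 of 6 had another member next to it, within 3 places or within 100 kb. In the mirror set 2 of 23 lay within 100 kb of another. No gene of the table overlapped a member.

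Neighbouring genes were then read on either side, 5 places each way. Of the 60 neighbours, 24 had no read in any library, and 22 reached 0.5 CPM in both controls. The log2 ratio of mean CPM, carbon dots over control with 0.1 added to each, had a median of -0.005 over those 22, in a range from -1.78 to 0.94, against 0.10 for all genes at that level and -1.96 to -4.17 for the members themselves. Here before and after mean lower and higher coordinates. Next to OSH1, LOC_Os03g51680, which ends 477 bases before it, had 236, 147, 284 and 165 counts (CD replicates 1 and 2, CK replicates 1 and 2). Its log2 ratio was -0.03. None of the 7 neighbours of OSH1 with reads had both control libraries above both carbon dot libraries. PLA1 lay among 6 neighbours with no read in any library. All 4 with reads had a lower mean with carbon dots, and 3 of the 4 had both control libraries above both carbon dot libraries, with small differences: the nearest neighbour at 0.5 CPM or more in both controls, LOC_Os10g26390 at 47665 bases, had a log2 ratio of -0.51. At LOC_Os04g43580, 0 of 5 neighbours with reads had both control libraries above both carbon dot libraries, and LOC_Os04g43560, 13770 bases before it, stood at 0.94.

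At LOC_Os08g28400 the 5 genes before it also had lower means with carbon dots, though only LOC_Os08g28350 among them reached 0.5 CPM in both controls. Their log2 ratios ran from -1.78 to -0.18, against -2.48 for LOC_Os08g28400 itself. LOC_Os08g28390, 4920 bases before it on the same strand, had no count in either carbon dot library but 12 and 17 in the controls (adjusted p = 0.46 by edgeR). LOC_Os08g28350, 16571 bases before it on chromosome 8 from 17295289 to 17303965, had 23 and 35 counts in the CD libraries against 182 and 105 in the CK libraries (0.307 and 0.710 against 2.27 and 1.73 CPM). Its log2 fold change was -2.09 ± 0.53 (SE), with an adjusted p of 0.47 by edgeR and 0.0346 by DESeq2. LOC_Os08g28360 had no count with carbon dots but 9 and 3 in the controls. Of the 7 neighbours with reads, 6 had a lower mean with carbon dots, against 38.8% of all genes with a read, and 4 had both control libraries above both carbon dot libraries, LOC_Os08g28380 among them with at most 2 counts in a library. The exception, LOC_Os08g28460, had 14 and 2 counts with carbon dots and 0 in both controls.

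At LOC_Os02g34380 the next gene, LOC_Os02g34390, which lies 929 bases after it on the other strand and faces it, had 5 and 0 counts in the CD libraries against 34 and 17 in the CK libraries. Its log2 ratio was -1.76, next to -1.96 for LOC_Os02g34380, and it missed the rule by its level of 0.280 CPM in CK replicate 2. Its edgeR and DESeq2 adjusted p were 0.51 and 0.29. Whether counting used strand is not given in the sources used here, so reads from an extended transcript of either gene cannot be told apart in this pair. At LOC_Os05g42130 the flanks were mixed: LOC_Os05g42140, 305 bases after it on the same strand, stood at 0.39, and LOC_Os05g42120, 2009 bases before it, at -0.39. Its 9 neighbours with reads had a median log2 ratio of -0.39, from -0.93 to 0.39. Of these 9, 6 had a lower mean with carbon dots, against 38.8% of all genes with a read. LOC_Os05g42060 (24611755 to 24613221) lies before it, beyond the 5 places read. It had 167 and 108 counts in the CD libraries against 554 and 628 in the CK libraries. Its fold of 3.09 missed the rule.

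Over all 36 neighbours with reads, 12 had both control libraries above both carbon dot libraries (33.3%), against 13.1% of the 34758 genes with a read. A lower mean with carbon dots was found in 21 of the 36 (58.3%), against 38.8%. Of the 12, 3 were among the 4 with reads at PLA1, 4 among 7 at LOC_Os08g28400, 4 among 9 at LOC_Os05g42130 and 1 among 4 at LOC_Os02g34380, and neighbours at the same member are not independent observations.

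**Figure D5:**
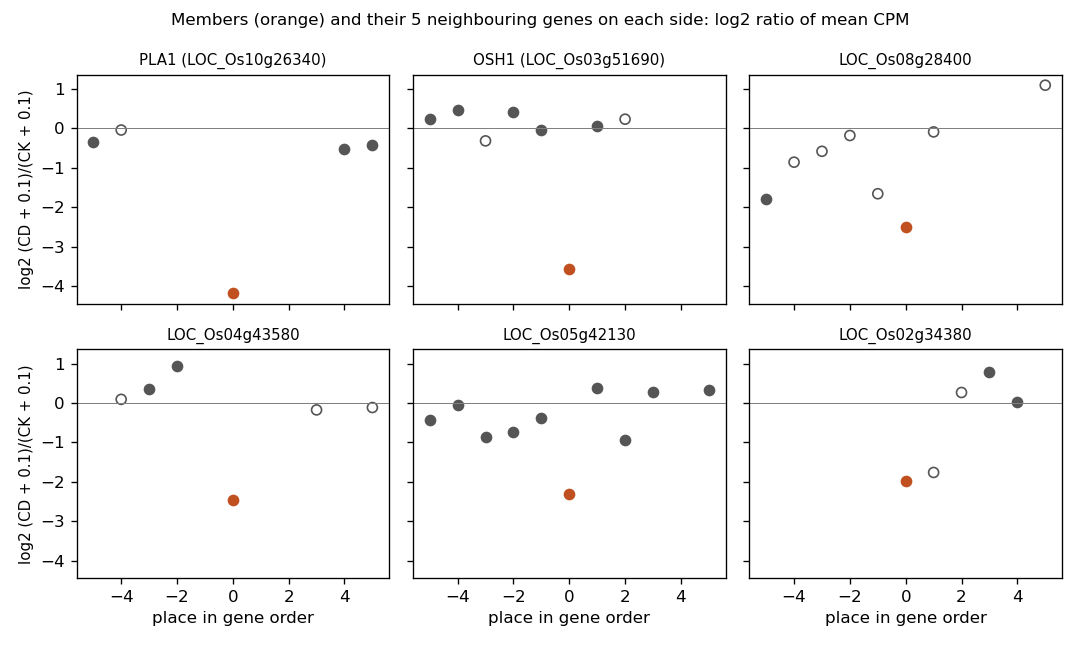
Each panel shows a member (orange, place 0) and the 5 genes on either side in gene order (x) by log2 of mean CPM + 0.1, carbon dots over control (y). Filled points reached 0.5 CPM in both control libraries, open points did not, and genes with no read in any library are left out. At OSH1 and at LOC_Os04g43580, 0 neighbours with reads had both control libraries above both carbon dot libraries. At LOC_Os08g28400 the 5 genes before it lie below 0, only LOC_Os08g28350 of them as a filled point. At LOC_Os02g34380 the next gene stands at -1.76.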

How the data were processed

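The authors deposited raw counts of reads per gene for 4 RNA-seq libraries, in the layout of featureCounts per the file headers. Their deposited TPM equal counts over gene length to within 3.64e-06. Among the tools in the submitters' processing notes, which give no roles, are HISAT2 2.0.5, fastp 0.21.0, featureCounts 1.6.4 and SAMtools 1.9. No source used here gives the genome build or strand setting, and coordinates are those of the deposited count table. Totals per library ran from 49281927 to 80317398 counts.

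CPM were counts over column totals. The replicates of a group differed beyond sampling noise (chi-square per degree of freedom 137.7 for CD and 81.5 for CK). edgeR 4.0.16 (R 4.3.3) fitted all genes with TMM, filterByExpr and the quasi-likelihood test, without a replicate block. A standard error is the absolute log2 fold change divided by the root of the F statistic. Alternatives were DESeq2 1.42.0 on the same genes, limma-voom (limma 3.58.1), RLE, no filter, a replicate block, each library left out and other rule thresholds. Fits and rule were tested on simulated counts. Floors used 3 counts, and intervals cover counting error only.

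The members and the gene lists (58 entries in 11 lists, entered by identifier and symbol) were chosen with earlier results of these data known. A symbol was accepted where the reference table (assembly ASM3414082v1, not the build of the files, so only its names were used) had it on the same chromosome, within 5 Mb and with a span of 0.667 to 1.5 times. Of the 58 entries, 41 matched. Genes were named by a rule: members with a symbol, the 10 highest in the control, those with 0 counts in both CD libraries, the 3 on each side of each threshold, runs of members, and the longest. All 6 members fell under it. Neighbours, LOC_Os05g42060, LOC_Os01g46984 and other list genes given with values were named after their values were seen. No p-value was adjusted over a list alone.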

Additional observations from a re-analysis of the deposited data

How the results depend on the processing

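How many genes met the rule depended on its settings. It was 8 with TMM or RLE library sizes (adding LOC_Os02g17780 and LOC_Os07g08160), 14 with the deposited TPM (5 of the 6 stayed, OSH1 fell below 0.5 TPM), 103 at a fold of 2, 3 at a fold of 8 (PLA1, OSH1 and LOC_Os05g42130), 14 at 0.25 CPM, 2 at 1 CPM (PLA1 and LOC_Os08g28400) and 33 to 67 with a library left out. edgeR called 0 genes (2286 at an unadjusted p under 0.05) and 0 members, also with RLE, with limma-voom, with the replicate block and with each library left out. DESeq2 called 502 genes, of which 303 were lower with carbon dots (1.18% of those tested), and 6 members. Without a filter edgeR called 29 genes, of which 15 were lower (0.0432% of those tested), and 3 members. The rule used the same contrast, so these counts of members describe the choice and support nothing. The deviations of same-numbered libraries correlated at -0.14, so a replicate block with crossed numbers was added after seeing the data, and it called 0 genes and 0 members too. The labels do not say that equal numbers share plants. The log2 fold changes of the 6 members, OSH6 and OSH15 kept their direction in all alternatives run. In each of these genes both control libraries lay well above both carbon dot libraries, so the direction could hardly change and this supports nothing. With a library left out PLA1 ranged from -9.88 to -6.84 and OSH1 from -9.70 to -8.49 (fitted values that depend on the prior count). LOC_Os04g43580 ranged from -3.74 to -2.69, LOC_Os02g34380 from -3.28 to -2.37, LOC_Os08g28400 from -3.07 to -2.45 and LOC_Os05g42130 from -3.44 to -3.18. OSH6 ranged from -8.35 to -7.87 and OSH15 from -3.02 to -1.89. Control levels of 41 to 344 counts limit the precision of each member.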
